A study of Mus musculus with 8 samples.

Results

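Heat shock proteins and their J-domain co-chaperones were followed in memory CD4 T cells of mice across 2 genotypes and 2 helper lineages. The members are the genes whose symbols belong to the Dnaja, Dnajb and Dnajc families or to the Hspa, Hspb, Hspd, Hspe, Hsph and Hsp90a families, as far as a probe set carries that symbol alone. Of 70 genes with such symbols, 4 chaperones of the endoplasmic reticulum (Hspa5, Dnajb9, Dnajb11 and Dnajc3) were left out. This gave 66 genes with 161 probe sets, among 18193 genes with a probe set of a single symbol. Of the 66, 54 genes with 118 probe sets passed the filter on dim signals and could be tested among 11217 genes.

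The study sorted polyclonal memory T follicular helper (Tfh) and T helper 1 (Th1) cells from spleen at day 60 after infection with lymphocytic choriomeningitis virus, strain Armstrong. Mice were Rictor-null or wild type (WT). The groups were Rictor-null Tfh, WT Tfh, Rictor-null Th1 and WT Th1, with 2 Affymetrix arrays each, so 8 arrays in all, and the RNA of every array came from 10 or more mice pooled together. Each array received labelled cRNA made from 100 ng of total RNA. All mice had been infected, and no group of uninfected mice or naive cells is analysed here. The sort gates, the deleted part of Rictor, the promoter driving its deletion, and the age and sex of the mice are not given in the labels or series text. Rictor is a subunit of the mTORC2 kinase complex.

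As background, HSP70 proteins bind exposed stretches of unfolded proteins in a cycle driven by ATP. J-domain proteins (DNAJA, DNAJB and DNAJC) bring them clients and start ATP hydrolysis, HSP110 proteins exchange the nucleotide, and HSP90 finishes the folding of kinases and receptors. Small heat shock proteins hold unfolded clients without ATP. Heat shock factor 1 raises many of these genes under proteotoxic stress, and several of them also respond when T cells are activated or handled.

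The label "cytosolic" covers only part of the members. For example, Hspa9, Hspd1, Hspe1 and Dnaja3 encode mitochondrial proteins. Hspa13, Dnajc1 and Dnajc10 encode proteins of the endoplasmic reticulum or microsomes, and Dnajb12 and Dnajb14 proteins of the endoplasmic reticulum membrane. These examples are not a complete list, and members not named here are not thereby cytosolic. Hspb11 encodes an intraflagellar transport protein but is counted below with the small heat shock proteins by its symbol. Hspbap1 encodes a protein that binds Hspb1. By family, the 54 tested genes were 7 of 10 HSP70 genes, 3 of 3 HSP110 genes, 1 HSP90 gene, 2 of 2 mitochondrial chaperonin genes, 4 of 8 small heat shock protein genes, 4 of 4 DNAJA, 9 of 11 DNAJB and 23 of 26 DNAJC genes, and Hspbap1. Hsp90ab1, Hsf1 and Dnajc19 had no probe set of their own symbol alone and are not analysed here.

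Heat shock factors bind inverted pairs of the half-site GAA, written GAANNTTC or TTCNNGAA. Each of these reads the same on both strands, and neighbouring pairs can overlap. In windows of 300 bases around RefSeq start sites (250 before, 50 after, assembly GRCm38.p6), 16 of 53 member genes with a promoter in the table held a pair, which is 30.2%, against 2749 of 17492 genes or 15.7%. A run of 3 half-sites (GAANNTTCNNGAA or TTCNNGAANNTTC) was found for 4 of 53 members, Dnajb6, Hspd1, Hspe1 and Hsph1, which is 7.55%, against 104 of all genes or 0.595%. The pair was about as frequent in members that passed a test below (5 of 16, 31.2%) as in tested members that passed none (9 of 27, 33.3%). The sequences shown are the 150 bases before the start site for the 5 members that both passed a test and held a pair, and for Hspe1, which held the longer run and passed no test. Where a gene has several RefSeq start sites, the one with the match is used. Capitals mark the matches. They lie at chr17:34972157-34972306 (minus strand) for Hspa1a, chr17:34959239-34959388 (minus) for Hspa1b, chr9:54699409-54699558 (plus) for Dnaja4, chr3:152193846-152193995 (minus) for Dnajb4, chr5:135887769-135887918 (plus) for Hspb1 and chr1:55087998-55088147 (plus) for Hspe1, all from RefSeq.
Hspa1a: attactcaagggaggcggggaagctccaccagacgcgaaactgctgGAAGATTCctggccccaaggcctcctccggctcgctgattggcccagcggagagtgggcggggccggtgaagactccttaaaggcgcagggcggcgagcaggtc
Hspa1b: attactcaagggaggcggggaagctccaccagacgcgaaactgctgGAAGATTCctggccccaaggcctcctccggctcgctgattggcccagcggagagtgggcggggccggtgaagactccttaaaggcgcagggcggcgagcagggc
Dnaja4: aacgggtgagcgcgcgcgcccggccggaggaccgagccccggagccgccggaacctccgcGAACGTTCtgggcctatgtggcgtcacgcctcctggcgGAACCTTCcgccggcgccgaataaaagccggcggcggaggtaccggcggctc
Dnajb4: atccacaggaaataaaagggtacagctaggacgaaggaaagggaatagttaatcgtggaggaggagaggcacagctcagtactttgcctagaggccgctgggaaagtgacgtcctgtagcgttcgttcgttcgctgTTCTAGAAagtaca
Hspb1: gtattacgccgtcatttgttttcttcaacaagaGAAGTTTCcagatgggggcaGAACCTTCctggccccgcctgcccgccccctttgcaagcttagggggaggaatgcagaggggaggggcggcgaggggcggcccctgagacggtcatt
Hspe1: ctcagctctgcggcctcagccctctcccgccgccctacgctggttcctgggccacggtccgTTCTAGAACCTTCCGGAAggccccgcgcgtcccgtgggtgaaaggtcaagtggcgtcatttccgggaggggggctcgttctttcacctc

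The Hspa1a and Hspa1b stretches were identical at 149 of 150 bases (99.3%), and both carry the pair 104 bases before the start site. Their start sites lie 12918 bases apart on chromosome 17. Hspd1 and Hspe1 are neighbours on opposite strands of chromosome 1. The Hspd1 start site with the match lies 216 bases from that of Hspe1, so the run shown for Hspe1 also falls in that Hspd1 window. The window of another Hspd1 start site held 0 pairs. A match is a description of the letters and not a binding site.

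The deposited values are probe set signals, an intensity on a linear scale. Array medians lay between 35.7 and 37.7, and array maxima between 16055 and 16327. Precision is set by having only 2 arrays in a group, and a permutation of 2 arrays against 2 cannot give a two-sided p below 0.333. All adjusted p-values here are from limma on log2(signal + 32), with Benjamini-Hochberg adjustment over all genes tested, and "passed" means an adjusted p under 0.05. Fold changes and log2 differences are on that scale, which understates the change of dim genes. Rictor had 5 probe sets. Its brightest read 563 and 576 in Rictor-null Tfh, against 560 and 563 in WT Tfh, and 493 and 474 in Rictor-null Th1, against 468 and 556 in WT Th1. Only the dimmest of the 5 passed between genotypes, and it was higher in Rictor-null Tfh (0.30, adjusted p = 0.0366). It read 45.6 and 53.5 there, against 32.4 and 35.5 in WT Tfh. Only the Rictor-null Tfh arrays lay above their array medians. This probe set thus entered the test only through the group where it was high, and its call is no evidence of a difference. Where these probe sets lie relative to the deletion is not given, so they check no label. All 5 CD4 T cell genes measured passed the signal filter, and none of them passed a test. Of 8 Tfh genes, Cxcr5 and Bcl6 among them, 6 were higher and 1 (Cd200) was lower in Rictor-null Tfh than in Rictor-null Th1 cells, and 6 were higher and 0 lower in WT Tfh than in WT Th1 cells. Of 7 Th1 genes, Cxcr6 and Id2 were lower in Rictor-null Tfh (adjusted p = 0.0111 and 0.0281) and Il2rb was lower in WT Tfh (adjusted p = 0.00326). Tbx21 and Ifng, the defining Th1 genes, passed the signal filter but no test, so few of the Th1 genes told the lineages apart here. The Th1 label itself comes from the sample titles. The B cell genes Cd79a, Ms4a1 and Pax5, the NK cell genes Ncr1 and Klra8, and Foxp3 did not pass the signal filter. The B cell genes Cd79b and Cd74 and the CD8 T cell genes Cd8a and Cd8b1 passed it. So did 3 of 8 myeloid genes, Lyz2, Csf1r and Cst3. Cst3 was higher in Rictor-null Th1 (0.30, adjusted p = 0.0464) and Cd8b1 in Rictor-null Tfh cells (0.28, adjusted p = 0.0109). No other myeloid or CD8 gene passed between genotypes. Eomes, listed here as an NK gene, was higher in Tfh cells by 3.31 log2 among Rictor-null and by 3.18 among WT cells.

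The Rictor-null and WT comparison asks what loss of this mTORC2 subunit changes in each lineage. In Tfh cells 5 members rose in Rictor-null cells, led by Hspa2 and Dnajc7, and 1 member fell, so 6 of 54 passed (11.1%). Over all tested genes 13.6% passed, 11.3% higher and 2.31% lower, so the share of members was near the background. In Th1 cells 8 of 54 passed (14.8%), against 10.5% of all genes. Of these, 3 rose in Rictor-null Th1 cells, where 7.55% of all genes did, and 5 fell (9.26%), where 2.97% of all genes did. The size of most differences was small: the member with the largest rise reached 0.43 log2 in Tfh and 0.41 in Th1 cells, both Hspa2, while Dnajc7 fell by 0.90 in Th1 cells.

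The median difference over the 54 members was 0.06 log2 in Tfh cells, beside 0.04 over all genes, and -0.01 in Th1 cells, beside 0.00. In Tfh cells 41 members (75.9%) had a positive difference, beside 60.7% of all genes. Both Rictor-null Tfh arrays lay above both WT Tfh arrays for 31 members (57.4%), beside 39.9% of all genes, and below them for 10 (18.5%), beside 19.7%. In Th1 cells both Rictor-null arrays lay above both WT arrays for 16 members (29.6%), beside 28.3% of all genes, and below them for 18 (33.3%), beside 27.7%. At an unadjusted p under 0.05, 23 members (42.6%) differed in Tfh cells, beside 30.3% of all genes, and 14 (25.9%) in Th1 cells, beside 24.8%. With another scaling between arrays, quantile normalization, the Tfh calls were 4 higher and 2 lower, beside 740 higher and 432 lower over all genes, which had 1269 and 259 in the main scaling. With median centring the Th1 calls were 3 higher and 2 lower, beside 1031 higher and 264 lower over all genes, which had 847 and 333. In bulk RNA, fewer cells of a type and less RNA per cell cannot be told apart. Beside both genotype comparisons moved 2 of 3 tested genes of the regulatory T cell list, Ikzf2 and Ctla4, whose list had summed signals of 3984 to 4025 in Rictor-null Tfh, against 2360 to 2381 in WT Tfh, and 3543 to 3703 in Rictor-null Th1, against 2051 to 2160 in WT Th1. Cd74, of the B cell list, was also higher in Rictor-null cells of both lineages; that list had summed signals of 194 to 222 in Rictor-null Tfh, against 168 to 183 in WT Tfh, and 221 to 246 in Rictor-null Th1, against 185 to 186 in WT Th1. Of the 8 Tfh genes, 8 were higher in Rictor-null Tfh (median 0.44 log2) and 6 in Rictor-null Th1 cells (median 0.36). That list had summed signals of 5946 to 6072 in Rictor-null Tfh, against 4090 to 4194 in WT Tfh, and 4282 to 4448 in Rictor-null Th1, against 3186 to 3274 in WT Th1. Their part in the members' differences was not tested.

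**Figure D1:**
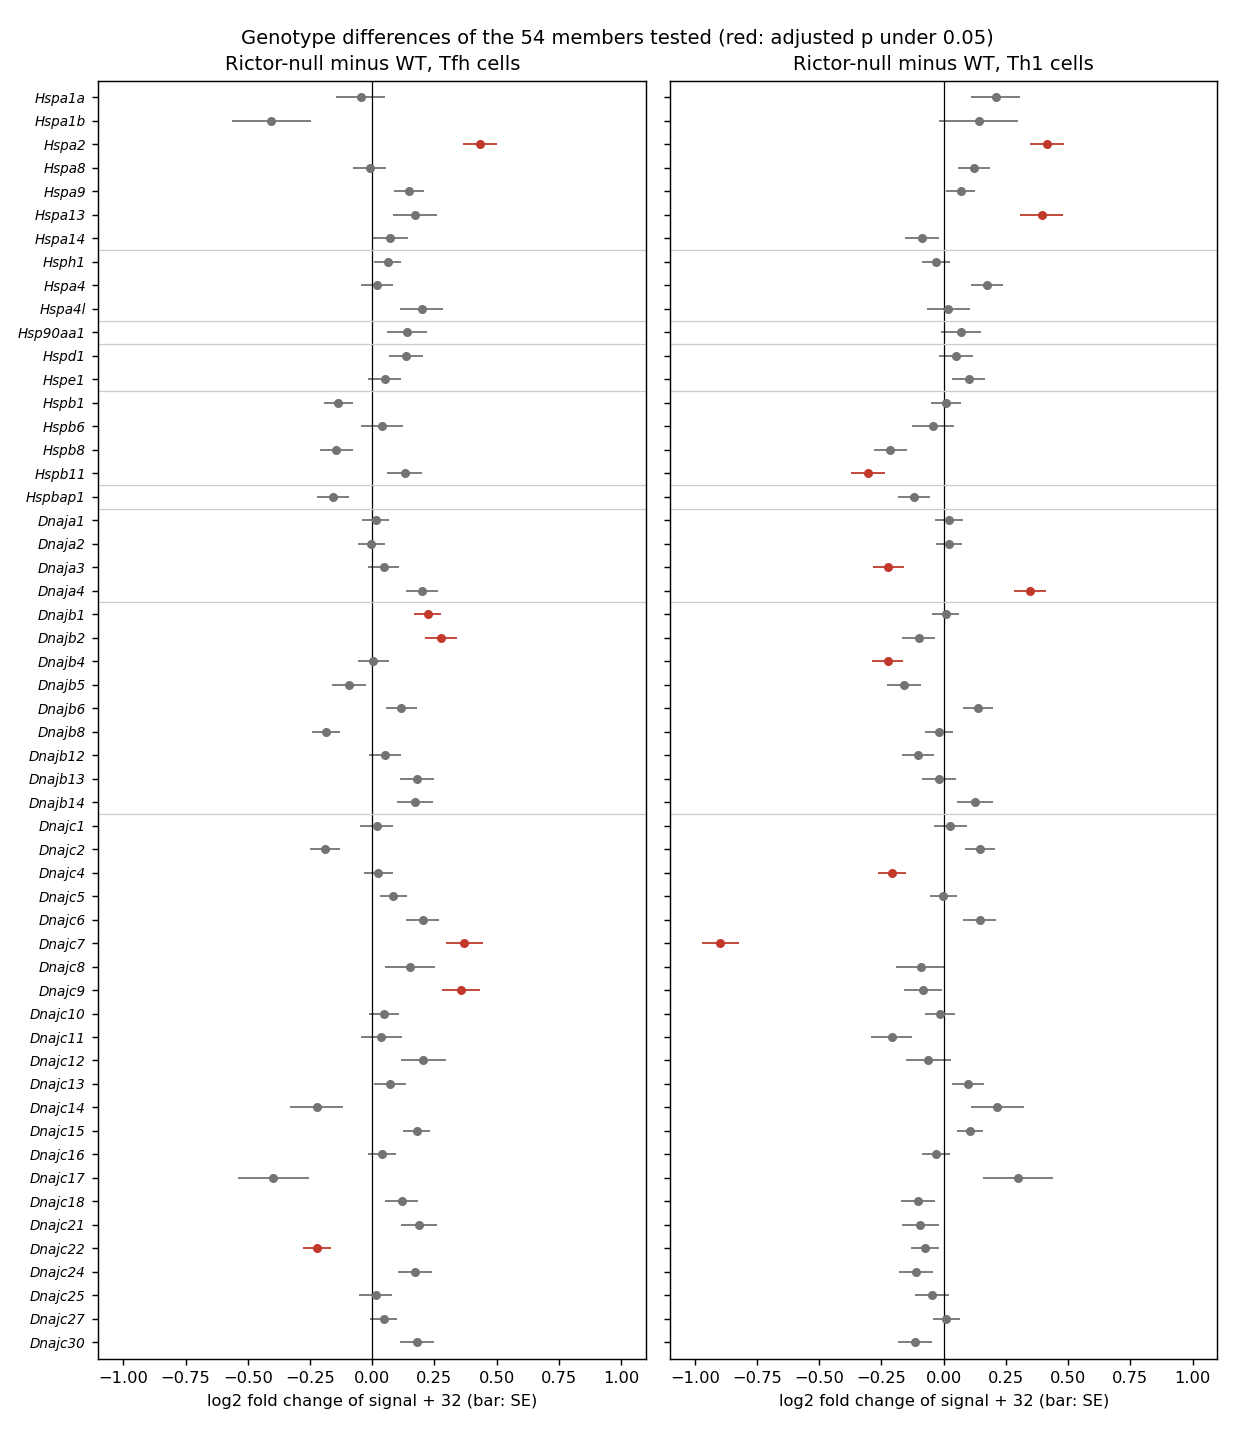
Difference between Rictor-null and WT cells (log2 fold change of signal + 32, horizontal axis) for each of the 54 tested members, in Tfh cells on the left and Th1 cells on the right; bars are SE and red marks an adjusted p under 0.05. In Tfh cells 41 of 54 points lie right of 0, and in Th1 cells Dnajc7 stands at -0.90.

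Among the HSP70 genes, Hspa2 was higher in Rictor-null cells of both lineages. Hspa2 (gene ID 15512, chr12:76403812-76406938) encodes an HSP70 best known from male germ cells, where it is needed for meiosis. Its signal was 56.9 and 63.5 in Rictor-null Tfh, against 37.9 and 34.8 in WT Tfh. It was 75.6 and 72.2 in Rictor-null Th1, against 51.8 and 43.3 in WT Th1. The genotypes did not overlap in either lineage, although the signals are low and the WT Tfh values lie near the array medians. The rise was 0.43 ± 0.068 log2 (SE, n = 2 arrays per group; 1.35-fold; adjusted p = 0.00215) in Tfh and 0.41 ± 0.068 (1.33-fold; adjusted p = 0.00278) in Th1 cells. The difference between these rises was 0.02 (95% interval -0.20 to 0.23). Both calls held in all 19 alternatives that could test Hspa2; a filter requiring signals above the median on all arrays removed the gene.

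Hspa13 rose in Rictor-null Th1 cells. It encodes an HSP70-like ATPase of microsomes without a peptide-binding domain. Its brightest probe set had signals of 194 and 205 in Rictor-null Th1, against 137 and 151 in WT Th1, and the groups lay apart (0.39 ± 0.088 log2, adjusted p = 0.0158). In Rictor-null Tfh cells it had 192 and 151, against 151 and 145 in WT Tfh (0.17, 95% interval -0.02 to 0.36, adjusted p = 0.217). A dimmer probe set of the same gene passed in the other lineage. It had 138 and 142 in Rictor-null Tfh, against 70.9 and 81.7 in WT Tfh, and 97.8 and 92.8 in Rictor-null Th1, against 86.8 and 102 in WT Th1. It passed in Tfh (0.67 ± 0.075, adjusted p = 0.000855 over all probe sets) and not in Th1 cells (0.01, adjusted p = 0.941), and its genotype effect differed between the lineages (0.66, adjusted p = 0.0287). The Th1 call of the brightest probe set ended without Rictor-null Th1 array 1 or 2 or WT Th1 array 1 (adjusted p = 0.0755, 0.115 and 0.119), with the mean of the probe sets (adjusted p = 0.211) and with no filter on dim signals (0.0541).

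The constitutive and stress-inducible HSP70 genes passed in neither genotype comparison. Hspa8, the constitutive HSC70, had signals of 6294 and 5659 in Rictor-null Tfh, against 6123 and 5905 in WT Tfh, with a difference of -0.01 (95% interval -0.16 to 0.13). In Th1 cells it had 6544 and 6344 in Rictor-null, against 5772 and 6073 in WT, with 0.12 (95% interval -0.02 to 0.27). Hspa1a, a stress-inducible HSP70, differed by -0.05 (95% interval -0.26 to 0.17) in Tfh and 0.21 (-0.01 to 0.43) in Th1 cells.

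Hspa1b, its near-identical neighbour, had signals of 1220 and 779 in Rictor-null Tfh, against 1342 and 1264 in WT Tfh; the groups lay apart, but the Rictor-null arrays were far from each other (-0.41, 95% interval -0.76 to -0.05, adjusted p = 0.115). In Th1 cells Hspa1b differed by 0.14 (95% interval -0.21 to 0.49). Hspa9, the mitochondrial HSP70, differed by 0.15 in Tfh (95% interval 0.02 to 0.28, adjusted p = 0.121) and 0.07 in Th1 cells (-0.06 to 0.20, adjusted p = 0.516).

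HSP90, HSP110 and chaperonin genes passed in neither genotype comparison, 0 of 6 genes in each lineage. Hsp90aa1, the inducible cytosolic HSP90, had signals of 3476 and 3594 in Rictor-null Tfh, against 3129 and 3289 in WT Tfh (0.14, 95% interval -0.04 to 0.31, adjusted p = 0.267). It had 3493 and 2943 in Rictor-null Th1, against 2954 and 3153 in WT Th1, and these groups overlapped (0.07, 95% interval -0.11 to 0.25). Hsph1, an HSP110, differed by 0.06 (95% interval -0.06 to 0.18) in Tfh and -0.03 (-0.15 to 0.09) in Th1 cells. Hspd1 and Hspe1 encode the barrel and the lid of the mitochondrial chaperonin. Hspd1 differed by 0.14 (95% interval -0.01 to 0.28) in Tfh and 0.05 (-0.10 to 0.20) in Th1 cells, and Hspe1 by 0.05 (-0.10 to 0.20) and 0.10 (-0.05 to 0.25). These intervals are for the brightest probe set of each gene and do not show that the genotypes are equal. A dimmer Hsp90aa1 probe set differed by 0.28 ± 0.109 in Tfh (adjusted p = 0.128 over all probe sets) and by 0.39 ± 0.109 in Th1 cells (adjusted p = 0.0571), without passing.

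**Figure D2:**
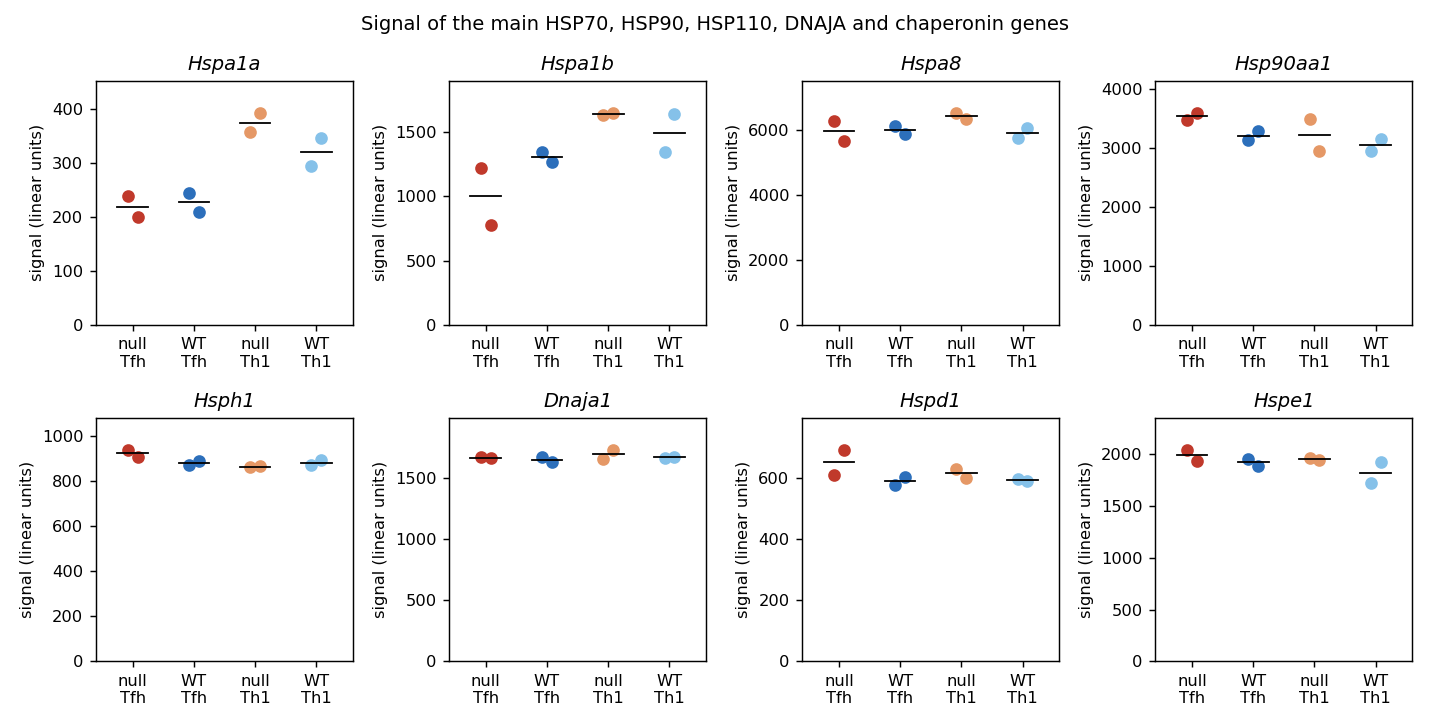
Signal (linear units, vertical axis) of Hspa1a, Hspa1b, Hspa8, Hsp90aa1, Hsph1, Dnaja1, Hspd1 and Hspe1 on each array, by group; points are arrays and bars are means of 2 arrays. The Hspa1a points of all 4 Th1 arrays lie above those of all 4 Tfh arrays, and Dnaja1 keeps between 1632 and 1732 throughout.

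Of the 4 tested genes grouped by symbol as small heat shock proteins, 1 passed between genotypes. That gene was Hspb11, while Hspb1, Hspb6 and Hspb8 did not pass. Hspb11, the intraflagellar transport gene, had signals of 122 and 138 in Rictor-null Th1, against 159 and 178 in WT Th1. The groups lay apart and Hspb11 fell (-0.30 ± 0.069, adjusted p = 0.017). In Tfh cells it had 145 and 138 in Rictor-null, against 127 and 126 in WT (0.13, 95% interval -0.02 to 0.28, adjusted p = 0.231). Hspb1, the small heat shock protein HSP27, differed by -0.14 (95% interval -0.27 to -0.01, adjusted p = 0.149) in Tfh and 0.01 (-0.12 to 0.14) in Th1 cells. Without Rictor-null Th1 array 1 or WT Th1 array 2 the Hspb11 call ended (adjusted p = 0.151 and 0.113).

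Among DNAJA genes, which carry the full domain set of bacterial DnaJ, Dnaja4 rose and Dnaja3 fell in Rictor-null Th1 cells. Dnaja4 had signals of 158 and 148 in Rictor-null Th1, against 116 and 111 in WT Th1, and the groups lay apart (0.35 ± 0.064, 1.27-fold, adjusted p = 0.00543). In Rictor-null Tfh cells it had 124 and 140, against 110 and 112 in WT Tfh, also apart, without passing (0.20, adjusted p = 0.063). The 2 other Dnaja4 probe sets differed in Th1 cells by only 0.06 and 0.07 (adjusted p = 0.557 and 0.596 over all probe sets). The Dnaja4 rise in Th1 cells thus rests on 1 probe set. Dnaja3, the mitochondrial DNAJA, had 212 and 208 in Rictor-null Th1, against 256 and 244 in WT Th1 (-0.22 ± 0.062, adjusted p = 0.0441). Dnaja1, the main DNAJA partner of cytosolic HSP70, had close signals on all arrays, 1667 and 1664 in Rictor-null Tfh, against 1668 and 1632 in WT Tfh, and 1656 and 1732 in Rictor-null Th1, against 1666 and 1671 in WT Th1. Its differences were 0.01 (95% interval -0.11 to 0.13) and 0.02 (-0.10 to 0.14). The Dnaja4 call ended without Rictor-null Th1 array 1 (adjusted p = 0.0624) and with the mean of probe sets (0.0959). The Dnaja3 call held in 8 of 20 alternatives, and without any single array other than those of Rictor-null Tfh it ended, at adjusted p-values up to 0.25.

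Among DNAJB genes, Dnajb1 and Dnajb2 rose in Rictor-null Tfh cells and Dnajb4 fell in Rictor-null Th1 cells, 3 of the 9 tested. Dnajb1, the stress-inducible HSP40, had signals of 1061 and 1096 in Rictor-null Tfh, against 928 and 910 in WT Tfh, and the groups lay apart (0.22 ± 0.054, 1.17-fold, adjusted p = 0.022). In Th1 cells it had 1013 and 1014 in Rictor-null, against 1000 and 1014 in WT (0.01, 95% interval -0.11 to 0.13). Dnajb2, a J protein with ubiquitin-binding motifs best known from neurons, had 81.0 and 93.0 in Rictor-null Tfh, against 64.1 and 68.2 in WT Tfh (0.28 ± 0.065, adjusted p = 0.0191). Its Th1 signals were 83.9 and 83.7 in Rictor-null, against 89.2 and 95.2 in WT, apart but without passing (-0.10, adjusted p = 0.368).

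Dnajb4, a close relative of Dnajb1, had signals of 326 and 353 in Rictor-null Th1, against 411 and 393 in WT Th1, and the groups lay apart (-0.22 ± 0.062, adjusted p = 0.0427). A dimmer Dnajb4 probe set also fell, with 156 and 152 in Rictor-null Th1, against 223 and 202 in WT Th1 (-0.39 ± 0.069, adjusted p = 0.00875 over all probe sets). In Tfh cells the brighter probe set differed by 0.00 (95% interval -0.13 to 0.14). The Dnajb1 and Dnajb2 calls ended without Rictor-null Tfh array 2, WT Tfh array 1 or WT Tfh array 2 (adjusted p between 0.0883 and 0.171). Both also ended in a fit of only the groups compared (0.0601 and 0.053) and without Rictor-null Tfh array 2 and WT Th1 array 1 together (0.073 and 0.0756), and the Dnajb1 call with quantile normalization (0.0702). The call of the brighter Dnajb4 probe set ended without either WT Tfh array or any single Th1 array (adjusted p between 0.0618 and 0.246), and with median centring, no filter, a pseudocount of 1 or only the groups compared (0.0506 to 0.0718).

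The DNAJC family, J proteins with varied partner domains, held the largest single difference among the members. Dnajc7 (gene ID 56354, chr11:100582818-100620292) encodes a protein with tetratricopeptide repeats that binds both HSP70 and HSP90. Its single probe set had signals of 754 and 734 in Rictor-null Tfh, against 559 and 578 in WT Tfh. In Th1 cells it had 419 and 470 in Rictor-null, against 802 and 912 in WT. The genotypes lay apart in both lineages and in opposite directions: Rictor-null was the higher genotype in Tfh cells and the lower one in Th1 cells. The rise in Tfh cells was 0.37 ± 0.075 log2 (1.29-fold, adjusted p = 0.00934) and the fall in Th1 cells -0.90 ± 0.075 (1.86-fold, adjusted p = 2.28e-05).

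The genotype effect on Dnajc7 in Tfh minus that in Th1 cells was 1.27 ± 0.105 log2 (95% interval 1.04 to 1.50, adjusted p = 0.000559). It ranked 7 by size among all 11217 genes, of which 136 passed this test of the difference. Dnajc7 was the 1 member of 54 that passed it (1.85%, beside 1.21% of all genes, 0.82% in the same direction), while 16 members (29.6%) had an unadjusted p under 0.05, beside 19.1% of all genes. The Tfh rise missed the threshold without WT Tfh array 1 (0.35, adjusted p = 0.0932) or array 2 (0.39, adjusted p = 0.0584). The Th1 fall and the difference between lineages held in every alternative run.

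Dnajc9, a nuclear J protein that is also a histone chaperone, rose in Rictor-null Tfh cells. It had signals of 478 and 415 there, against 342 and 339 in WT Tfh, and the groups lay apart (0.36 ± 0.077, 1.28-fold, adjusted p = 0.0132). In Th1 cells it had 332 and 336 in Rictor-null, against 333 and 380 in WT (-0.08, 95% interval -0.25 to 0.09), and the difference between the lineages did not pass (0.44, adjusted p = 0.0883). Dnajc22, the counterpart of Drosophila wurst, which acts in endocytosis in that species, fell in Rictor-null Tfh cells, with 72.5 and 67.9 there, against 87.4 and 86.9 in WT Tfh (-0.22 ± 0.057, adjusted p = 0.0275). Dnajc4 fell in Rictor-null Th1 cells, with 279 and 272, against 325 and 322 in WT Th1 (-0.21 ± 0.057, adjusted p = 0.0418). These were 4 of the 23 DNAJC genes tested, with Dnajc7 counted once, and the other 19 passed in neither genotype comparison. The Dnajc9 call ended without either WT Tfh array (adjusted p = 0.0907 and 0.102), that of Dnajc22 without these or Rictor-null Tfh array 2 (0.12 to 0.167), and that of Dnajc4 without either WT Tfh array or any single Th1 array (0.074 to 0.192). The Dnajc22 and Dnajc4 calls also ended in a fit of only the groups compared (adjusted p = 0.0638 and 0.0504), and that of Dnajc4 with median centring (0.0676) or a pseudocount of 1 (0.0674).

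**Figure D3:**
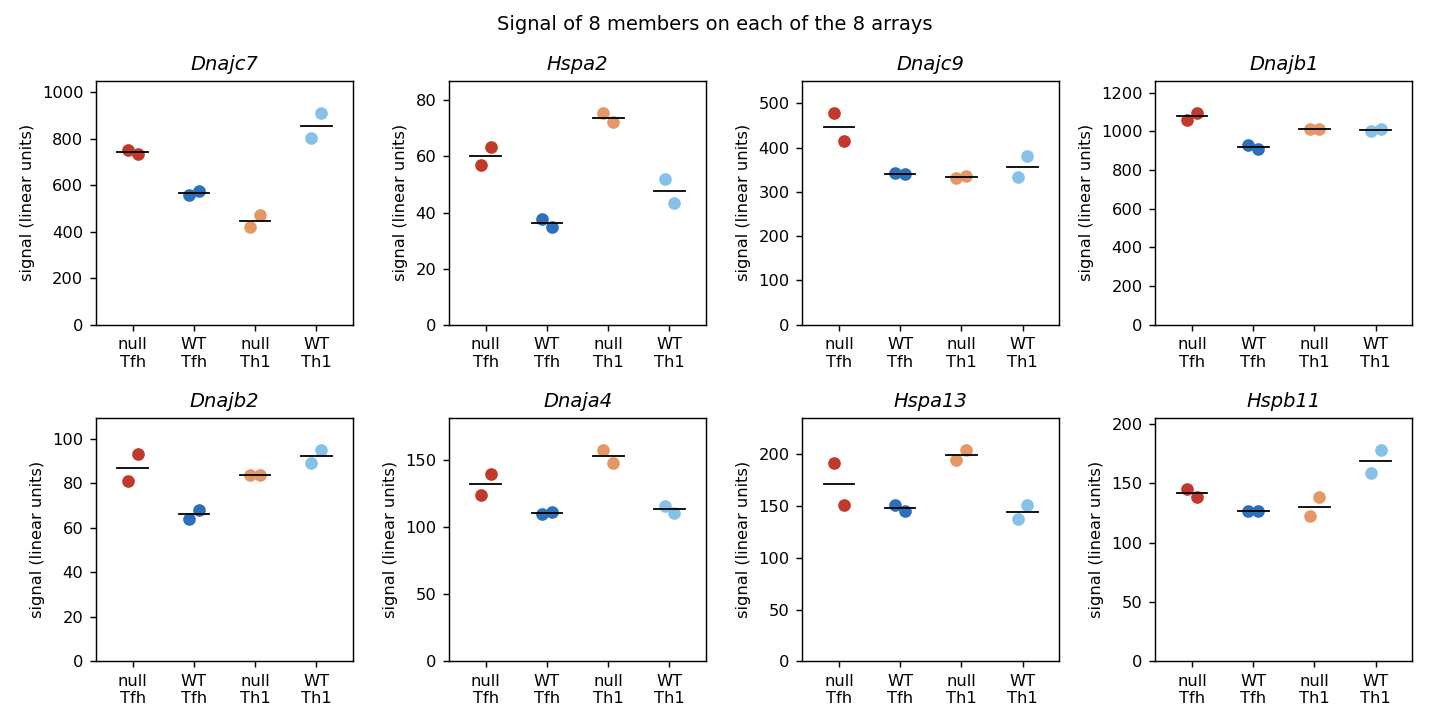
Signal (linear units, vertical axis) of Dnajc7, Hspa2, Dnajc9, Dnajb1, Dnajb2, Dnaja4, Hspa13 and Hspb11 on each of the 8 arrays, by group; points are arrays and bars are means of 2 arrays. Dnajc7 is higher in Rictor-null than in WT Tfh cells and lower in Rictor-null than in WT Th1 cells, while Hspa2 is higher in Rictor-null cells of both lineages.

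The comparison of Tfh with Th1 cells asks how the lineages differ within a genotype; it uses the same arrays as the genotype comparisons. In Rictor-null cells 5 of 54 members passed (9.26%), beside 9.72% of all genes: 2 were higher in Tfh cells, where 3.27% of all genes were, and 3 lower, where 6.45% were. In WT cells 9 members passed (16.7%), beside 14.7% of all genes: 1 was higher in Tfh cells, where 3.09% of all genes were, and 8 lower, where 11.6% were. These shares were near the background. The median member difference was 0.01 log2 in Rictor-null cells, beside -0.01 over all genes, and -0.05 in WT cells, beside -0.06. Both Tfh arrays lay above both Th1 arrays for 14 members (25.9%) in Rictor-null cells, beside 21.3% of all genes, and below them for 14 (25.9%), beside 28%. In WT cells they lay above for 6 members (11.1%), beside 19.7%, and below for 26 (48.1%), beside 48%. At an unadjusted p under 0.05, 14 members (25.9%) differed in Rictor-null cells, beside 24.4% of all genes, and 19 (35.2%) in WT cells, beside 33.7%.

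**Figure D4:**
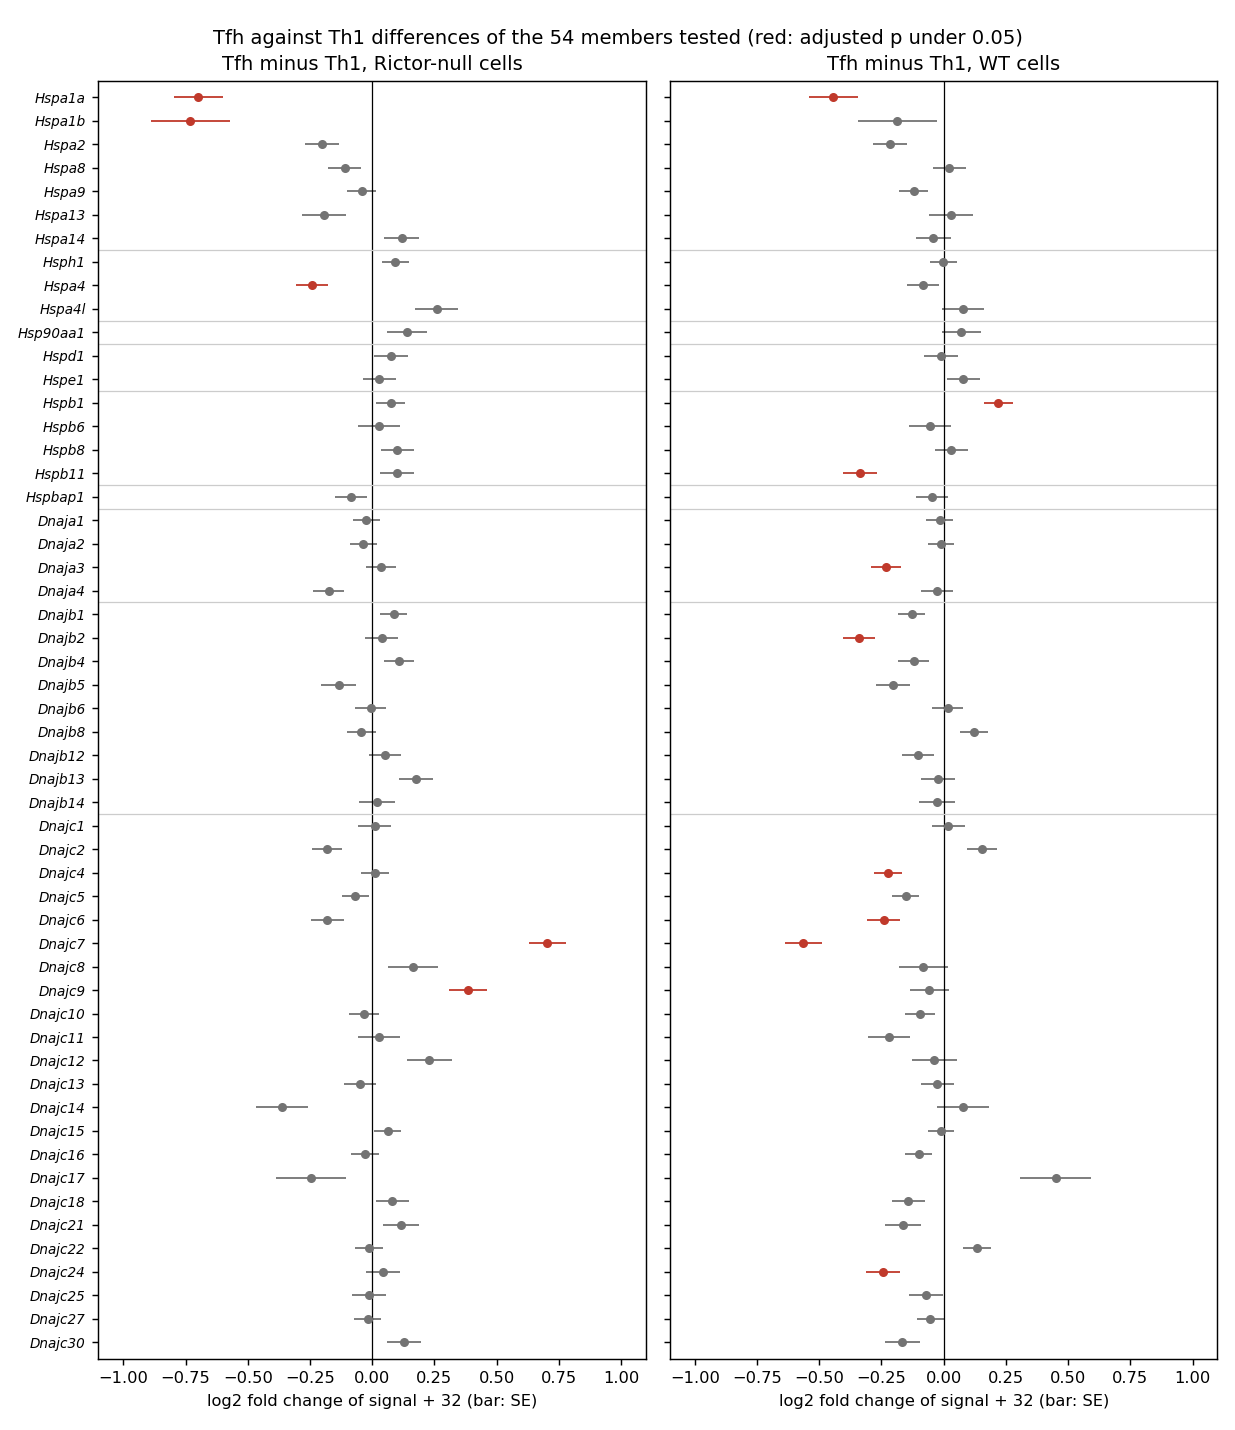
Difference between Tfh and Th1 cells (log2 fold change of signal + 32, horizontal axis) for each of the 54 tested members, in Rictor-null cells on the left and WT cells on the right; bars are SE and red marks an adjusted p under 0.05. Hspa1a lies left of 0 in both panels, while Dnajc7 lies at 0.70 in Rictor-null and at -0.56 in WT cells.

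Of the inducible HSP70 genes, Hspa1a was lower in Tfh than in Th1 cells of both genotypes, and Hspa1b was lower among Rictor-null cells. Hspa1a (gene ID 193740, chr17:34969359-34972156) had signals of 238 and 200 in Rictor-null Tfh, against 357 and 393 in Rictor-null Th1. It had 245 and 210 in WT Tfh, against 295 and 346 in WT Th1. All 4 Tfh arrays lay below all 4 Th1 arrays. Hspa1a was lower by -0.70 ± 0.098 log2 (1.62-fold, adjusted p = 0.00143) in Rictor-null and by -0.44 ± 0.098 (1.36-fold, adjusted p = 0.018) in WT cells. Hspa1b (gene ID 15511, chr17:34956429-34959238) had 1220 and 779 in Rictor-null Tfh, against 1632 and 1651 in Rictor-null Th1 (-0.73 ± 0.159, adjusted p = 0.0158). It had 1342 and 1264 in WT Tfh, against 1343 and 1644 in WT Th1, where Tfh array 1 and Th1 array 1 nearly met (-0.19, 95% interval -0.54 to 0.16, adjusted p = 0.43).

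The other Hspa1b probe sets also passed among Rictor-null cells. They differed by -0.67 ± 0.081 (adjusted p = 0.00127 over all probe sets) and -0.58 ± 0.090 (adjusted p = 0.00439), and in WT cells by -0.28 and -0.26 without passing (adjusted p = 0.0605 and 0.0952). Because Hspa1a and Hspa1b are near-identical copies, their probe sets may detect both RNAs, so the split between them is uncertain. The test of a genotype difference in these lineage differences was not passed (Hspa1a -0.26, adjusted p = 0.336; Hspa1b -0.55, adjusted p = 0.228).

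A list of 19 immediate early genes, which respond to activation and to cell handling, moved beside Hspa1a and Hspa1b. In Tfh against Th1 cells 8 of 19 were lower and 4 higher among Rictor-null cells, and 11 lower and 1 higher among WT cells. Over all genes 6.45% were lower and 3.27% higher among Rictor-null cells, and 11.6% lower and 3.09% higher among WT cells. Summed signals of the list were 41480 to 41750 in Rictor-null Tfh, against 45550 to 45710 in Rictor-null Th1, and 37490 to 37650 in WT Tfh, against 41110 to 42420 in WT Th1. Their part in the Hspa1a and Hspa1b differences was not tested. Between genotypes the same list had 10 higher and 0 lower genes in Rictor-null Tfh, and 8 higher and 2 lower in Rictor-null Th1 cells. Over all genes 11.3% were higher and 2.31% lower in Rictor-null Tfh, and 7.55% higher and 2.97% lower in Rictor-null Th1 cells. The Hspa1a call in WT cells ended without WT Tfh array 1, WT Tfh array 2 or WT Th1 array 2 (adjusted p = 0.0524, 0.148 and 0.0898), and the Hspa1b call in Rictor-null cells without Rictor-null Th1 array 1 or 2 (adjusted p = 0.11 and 0.097) or with no filter on dim signals (0.0758). The size of that Hspa1b difference rests on the Tfh arrays: it was -0.42 without Rictor-null Tfh array 2 and -1.04 without Rictor-null Tfh array 1, and passed both times (adjusted p = 0.0323 and 0.000143). The Hspa1a call in Rictor-null cells held in every alternative run.

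Dnajc7 differed between lineages in both genotypes, again in opposite directions. It was higher in Tfh than in Th1 cells among Rictor-null cells (0.70 ± 0.075, 1.63-fold, adjusted p = 0.000214) and lower among WT cells (-0.56 ± 0.075, 1.48-fold, adjusted p = 0.00127). Dnajc9 was higher in Rictor-null Tfh than in Rictor-null Th1 cells (0.38 ± 0.077, adjusted p = 0.011); in WT cells its groups overlapped (-0.06, 95% interval -0.23 to 0.11). Hspa4, an HSP110 that exchanges HSP70 nucleotides, had 939 and 933 in Rictor-null Tfh, against 1166 and 1061 in Rictor-null Th1 (-0.24 ± 0.064, adjusted p = 0.0398). Leaving out either Rictor-null Th1 array ended the Dnajc9 call (adjusted p = 0.0869 and 0.0621), and the Hspa4 call held in 7 of 20 alternatives, with adjusted p-values from 0.025 to 0.668. With the mean of its probe sets the Hspa4 difference was -0.05 (adjusted p = 0.668). Of its 3 other probe sets 1 was also lower (-0.24), and the rest differed by 0.25 and 0.04 without passing, so its direction is uncertain.

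In WT cells 6 further members were lower in Tfh than in Th1 cells. Dnajb2 had 64.1 and 68.2 in WT Tfh, against 89.2 and 95.2 in WT Th1 (-0.34 ± 0.065, adjusted p = 0.00948). Hspb11 had 127 and 126 in WT Tfh, against 159 and 178 in WT Th1 (-0.34 ± 0.069, adjusted p = 0.0135). Dnajc24, which acts in the diphthamide modification of translation elongation factor 2, was lower by -0.24 (adjusted p = 0.0395), and Dnajc6, the clathrin-uncoating co-chaperone auxilin, by -0.24 (adjusted p = 0.0372). Dnaja3 was lower by -0.23 (adjusted p = 0.0326) and Dnajc4 by -0.22 (adjusted p = 0.0296). For each of these the WT groups lay apart.

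Hspb1 was the 1 member higher in WT Tfh than in WT Th1 cells. It had signals of 88.0 and 84.7 in WT Tfh, against 70.7 and 68.6 in WT Th1 (0.22 ± 0.059, adjusted p = 0.0342). Among Rictor-null cells Hspb1 had 77.2 and 74.1 in Tfh, against 74.1 and 66.6 in Th1 (0.07, 95% interval -0.06 to 0.20). Leaving out WT Tfh array 1 or 2 ended each of these 7 calls (adjusted p between 0.0602 and 0.287), and so did leaving out WT Th1 array 2 (0.0557 to 0.176). WT Th1 array 1 also decided Dnaja3, Dnajc4, Dnajc6, Dnajc24 and Hspb1 (0.0855 to 0.209), and either Rictor-null Th1 array, through the shared spread, Dnaja3, Dnajc6 and Dnajc24 (0.0506 to 0.0611). Quantile normalization ended the calls of Dnaja3, Dnajc4, Dnajc6 and Dnajc24 (0.0954 to 0.132), no filter on dim signals those of Dnajc6 and Dnajc24 (0.0538 and 0.0595), and the mean of probe sets those of Dnaja3 and Dnajc24 (0.0559 and 0.0601).

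The other probe sets of the members served as a check of the brightest. Of the 29 calls above, 9 were for genes with other probe sets above the filter, 14 probe sets in all. Of these, 11 had the same sign, 3 of them passed, and 0 passed in the opposite direction. A same sign alone is weak agreement, because some of these differences were small. In Th1 cells they were 0.01 for an Hspa13 and -0.05 for a Dnaja3 probe set. In a fit over 23725 probe sets, 3 of the 64 other probe sets were higher in Rictor-null Tfh cells (4.69%, beside 8.46% of all probe sets): those of Hspa13, of Dnajb12 (0.34, adjusted p = 0.0214) and of Dnajc17 (0.30, adjusted p = 0.0292). None of the 64 was lower there in this limma fit, beside 1.61% of all probe sets. The Hspa13 probe set was also the 1 of 64 (1.56%, beside 0.83%) with a larger genotype effect in Tfh than in Th1 cells. Dnajc17, a nuclear J protein of the spliceosome, had a brightest probe set that ran the other way without passing (-0.40, 95% interval -0.71 to -0.08), so its direction is uncertain. In Rictor-null Th1 cells 3 were higher (4.69%, beside 6.39%), of Dnaja1 (0.26, adjusted p = 0.0217), Dnaja2 (0.28, adjusted p = 0.0235) and Dnajc13 (0.34, adjusted p = 0.0124), and 1 was lower (1.56%, beside 2.36%), of Dnajb4.

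Dimmer probe sets of the main chaperones differed between lineages where the brightest did not. A Hsp90aa1 probe set had 2337 and 2156 in Rictor-null Tfh, against 1682 and 1368 in Rictor-null Th1 (0.56 ± 0.109, adjusted p = 0.0132), and 1917 and 1764 in WT Tfh, against 1053 and 1252 in WT Th1 (0.66 ± 0.109, adjusted p = 0.00888). The brightest Hsp90aa1 probe set differed by 0.14 and 0.07 in the same comparisons without passing. A Hspa8 probe set went the other way, with 393 and 393 in Rictor-null Tfh, against 559 and 530 in Rictor-null Th1 (-0.44 ± 0.059, adjusted p = 0.00226), and 411 and 420 in WT Tfh, against 548 and 513 in WT Th1 (-0.33 ± 0.059, adjusted p = 0.0125). The brightest Hspa8 probe set differed by -0.11 and 0.02. Which transcripts these probe sets detect was not analysed here. In all, 3 other probe sets were higher (4.69%, beside 4.22%) and 7 lower (10.9%, beside 6.06%) in Rictor-null Tfh than Th1 cells, and 1 was higher (1.56%, beside 2.31%) and 4 lower (6.25%, beside 7.09%) in WT cells.

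**Figure D5:**
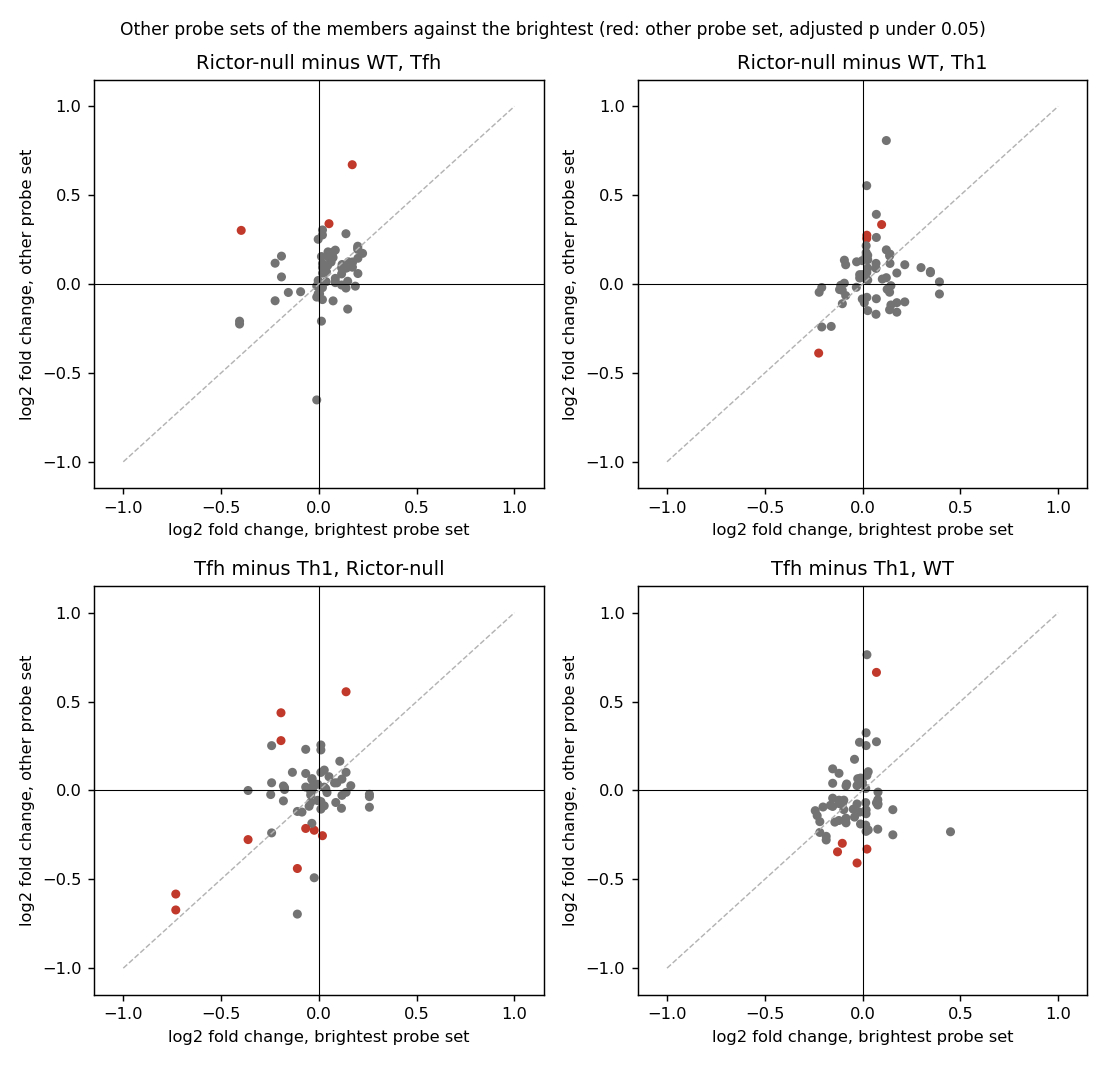
Log2 fold change of each other member probe set (vertical axis) against that of the brightest probe set of the same gene (horizontal axis), in 4 panels, Rictor-null minus WT above and Tfh minus Th1 below; each point is 1 of 64 probe sets, and red marks an adjusted p under 0.05 of the other probe set. The red points far above the dashed line of equality include Hspa13 at 0.67 in the Tfh panel and Hsp90aa1 at 0.66 in the WT panel.

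Rictor-null Tfh array 2 and WT Th1 array 1 stood lowest on the third principal component of all genes, and some member probe sets were lowest on exactly these. This held for 7 of 118 member probe sets (5.93%, beside 6.64% of all probe sets), while 13 (11%, beside 7.87%) were highest there. Among the 7 were the brightest probe sets of Hspa8 and Dnajc14, and dimmer ones of Hsp90aa1, Dnaja1, Dnaja2 and Hspa9. A second Hspa8 probe set was also among them. It had 1998 and 814 in Rictor-null Tfh, against 2302 and 1786 in WT Tfh. In Th1 cells it had 2082 and 2100 in Rictor-null, against 954 and 1461 in WT. Without both arrays 4 members passed between genotypes in Tfh cells, beside 1066 of all genes, and 6 in Th1 cells, beside 1218. Between lineages 6 members passed in Rictor-null cells, beside 1169 of all genes, and 9 in WT cells, beside 1521.

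The 12 members below the signal filter were Dnajb3, Dnajb7, Dnajc28, Dnajc5b, Dnajc5g, Hspa12a, Hspa12b, Hspa1l, Hspb2, Hspb3, Hspb7 and Hspb9. Several of these are known from testis or muscle, as Hspa1l and Hspb7 are. Their brightest probe sets had signals between 4.2 and 37.2 on all arrays, so differences among them could not be measured here. Of the 54 tested members, 36 passed in none of the 5 tests. The same share over all genes was not computed, so this count does not set the members apart from other genes.

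Genes that work with the members were read from the same fit. As the background for these lists, 11.3% of all genes were higher and 2.31% lower in Rictor-null Tfh cells. In Rictor-null Th1 cells 7.55% of all genes were higher and 2.97% lower. Of 10 tested HSP70 partners, Bag3, a nucleotide exchange factor and heat shock target, rose in Rictor-null Tfh cells, with 236 and 287 there, against 200 and 209 in WT Tfh (0.30 ± 0.079, adjusted p = 0.0294), and 0 passed in Th1 cells. Of 15 HSP90 co-chaperones, Nudc rose (0.41, adjusted p = 0.00345) and Sugt1 fell (-0.23, adjusted p = 0.0446) in Rictor-null Tfh cells, and 0 passed in Th1 cells. Of 2 genes of the heat shock factor list, Hsbp1, which encodes a heat shock factor binding protein, rose in Rictor-null Tfh cells (0.25, adjusted p = 0.0257), and Hsf2 did not pass (-0.02, adjusted p = 0.894); in Th1 cells 0 of 2 passed. Of 8 genes of the TRiC chaperonin and 12 of mitochondrial protein quality control, 0 passed in either genotype comparison.

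Prefoldin, which hands actin and tubulin to TRiC, had 2 of 6 genes higher in Rictor-null Tfh cells and 1 of 6 lower in Rictor-null Th1 cells. Pfdn2 had signals of 258 and 271 in Rictor-null Tfh, against 188 and 184 in WT Tfh, and of 200 and 196 in Rictor-null Th1, against 255 and 271 in WT Th1. Its groups lay apart in opposite directions, with 0.44 (adjusted p = 0.000629) in Tfh and -0.36 (adjusted p = 0.00222) in Th1 cells, and the lineages differed (0.80 ± 0.081, adjusted p = 0.00138). Pfdn6 rose in Rictor-null Tfh cells (0.35, adjusted p = 0.00569) and its genotype effect also differed between lineages (0.50, adjusted p = 0.0267). Of the 5 endoplasmic reticulum chaperones outside the rule, Dnajc3 fell in Rictor-null Tfh cells, with 1178 and 1283, against 1648 and 1649 in WT Tfh (-0.41 ± 0.085, adjusted p = 0.0105), and 0 passed in Th1 cells. Of 6 tested oxidative stress genes, the metallothionein gene Mt1 rose in Rictor-null Tfh cells (0.32, adjusted p = 0.0275) and 0 passed in Th1 cells. Mt1 read 53.8 and 48.7 in Rictor-null Tfh, against 33.8 and 35.7 in WT Tfh. No WT array lay above its median for Mt1. The gene thus entered the test only through Rictor-null arrays, and its call is no evidence of a difference.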

How the data were processed

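The deposited table was made by the authors and gives a linear intensity per array for 45037 probe sets on 8 arrays; the submitters' processing notes name MAS5 and RMA with no version, role or order, and per the labels biotin-labelled cRNA was made from total RNA. Detection calls were not used here. Of the probe sets, 34945 carry 1 gene symbol in GEO's platform annotation and 932 carry several. Values were taken to log2 after adding 32. Probe sets above their array's median on at least 2 of 8 arrays were kept, and each gene was represented by its brightest one. limma 3.58.1 in R 4.3.3 fitted 1 mean per group to all 8 arrays (4 residual and 6.7 prior degrees of freedom), with 5 contrasts and Benjamini-Hochberg adjustment over 11217 genes or 23725 probe sets; 95% intervals use limma's moderated t. The fit was tested on simulated data. Groups and replicate numbers come from the sample titles, which call the 2 samples of a group biological replicates.

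The members and lists were chosen with earlier results of these data known. Named are members that passed (up to 12 each way between genotypes, up to 8 otherwise) and the best known members. Also named are up to 3 genes per partner list, markers given as checks, and members the filter left out. The Hspa13, Dnajb4, Dnajb12, Dnajc17, Dnaja1, Dnaja2, Dnaja3, Dnaja4, Dnajc13, Hsp90aa1 and Hspa8 dimmer probe sets were picked after their values were seen. Promoters and positions are RefSeq's, assembly GRCm38.p6, matched by symbol. A planned search of protein motifs was not run, because no protein sequences were used. Alternatives were quantile normalization, median centring, no or a stricter filter, pseudocounts of 1 and 64, the mean of probe sets, array weights, a trended prior, a replicate block, fits of only the groups compared, and leaving out arrays; with 1 array left in a group, that array is assumed to vary like the others.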

Additional observations from a re-analysis of the deposited data

Results flagged for a closer look

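The genotype effect on Dnajc7 in Tfh minus that in Th1 cells was 1.27 log2 (95% interval 1.04 to 1.50). It stands out because the lineages differ by a direct test (limma, adjusted p = 0.000559). The genotype groups also lay apart in both lineages, in opposite directions. Rictor-null minus WT was 0.37 in Tfh and -0.90 in Th1 cells. Dnajc7 has a single probe set of its own symbol, so no other probe set checks this value.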

How the results depend on the processing

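Of 29 calls of a member in a comparison, 7 passed under each of the alternatives that could test them: Hspa2 in both genotype comparisons, Dnajc7 in the Th1 genotype comparison, in both lineage comparisons and in the difference between lineages, and Hspa1a between lineages in Rictor-null cells. The other 22 missed the threshold under 1 or more, 7 of them only where arrays were left out, and 0 changed sign. Between genotypes in Tfh cells, where 6 members passed, the count was 12 with the mean of probe sets, 3 in a fit of only the groups compared, and 1 to 16 when leaving out 1 array (16 without Rictor-null Tfh array 1, 1 without either WT Tfh array). In Th1 cells, where 8 passed, it was 5 with median centring, with no filter, with a pseudocount of 1 and with the replicate block, and 2 to 10 without 1 array (2 without Rictor-null Th1 array 1, 4 without Rictor-null Th1 array 2 or either WT Th1 array, 5 without either WT Tfh array). Between lineages in Rictor-null cells, where 5 passed, it was 3 with no filter and 2 to 9 without 1 array (2 without Rictor-null Th1 array 1, 9 without Rictor-null Tfh array 1). In WT cells, where 9 passed, it was 5 with quantile normalization, 16 with array weights, 5 with the replicate block and 1 to 13 without 1 array (1 without WT Tfh array 1, WT Tfh array 2 or WT Th1 array 2, 4 without WT Th1 array 1). For the difference between lineages, where 1 passed, it was 2 with the mean of probe sets, 3 without Rictor-null Tfh array 2 and WT Th1 array 1 together, a choice made after seeing the data, and 1 to 14 without 1 array (14 without Rictor-null Tfh array 1, 2 without Rictor-null Tfh array 2). The cause of these shifts was not tested. Counts over all genes shifted as well. Between lineages in WT cells 1653 of all genes passed in the main fit and 1007 with quantile normalization. Between genotypes in Th1 cells 1180 passed in the main fit and 1295 with median centring. A count over all genes is not set beside every run, so the shifts cannot be read as particular to the members.

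The labels do not say whether same-numbered arrays share a pool of mice or a run. Deviations of same-numbered arrays correlated at 0.276 and 0.172 between genotypes and at -0.23 and -0.278 between lineages. With 2 arrays per group these values cannot settle whether the samples are paired. With the replicate block 5 members passed in Tfh cells, 4 between lineages in Rictor-null cells and 1 for the difference between lineages. The counts over all genes with the block are not given here, so these counts cannot be read as particular to the members. Calls that missed the threshold with the block were Dnajc22 in Tfh (adjusted p = 0.0527), Dnaja3, Dnajb4 and Dnajc4 in Th1 cells (0.0629 to 0.0775), Hspa4 between lineages in Rictor-null cells (0.0706), and Dnaja3, Dnajc6, Dnajc24 and Hspb1 between lineages in WT cells (0.0503 to 0.0668). Members with dim signals, such as Hspa2, Dnajb2 and Dnajc22, have signals nearer the array medians, and the pseudocount shrinks their differences more.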
